A study of Curvularia clavata with 15 samples.

Results

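A set of 156 of 10170 gene IDs of the filamentous fungus Curvularia clavata was described, whose transcript level on lignosulfonate was lowered in the Δrpn-4 mutant and lay within 2-fold of wild type (WT) in the ΔCclaeA and Δtah-1 mutants. Members were chosen from the measured values. FPKM, the fragment count scaled to transcript length and to the mapped total of the library, was divided by a size factor per library, averaged per group and transformed to log2(mean + 1), and each mutant was set against WT on lignosulfonate. The difference had to be at most -1 in Δrpn-4 and strictly between -1 and 1 in both other mutants. IDs with at least 10 FPKM in all 3 libraries of one WT medium and under 1 FPKM in all 3 of the other were left out, which removed 6 of 162.

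The samples were mycelia of strain J1 shaken for 4 days at 30 °C, with 3 libraries in each of 5 groups. The Δrpn-4, ΔCclaeA and Δtah-1 deletion mutants and one WT group grew on 2% lignosulfonate with 0.25% glucose, and the other WT group grew on 2% glucose without lignosulfonate. Lignosulfonate is a water-soluble sulfonated lignin, and the series asks how the fungus responds to it and what the regulators rpn-4, CclaeA and tah-1 contribute. Neither separate cultures for the 3 samples of a group nor several clones per mutant are recorded in the labels. The spread behind each p-value is therefore that of these samples alone, and part of it may be technical. RNA came from bulk mycelium, where less transcript per hypha and fewer hyphae with the transcript cannot be told apart.

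In budding yeast, Rpn4 is a transcription factor that activates proteasome genes and is itself degraded by the proteasome, so that it accumulates when proteasome capacity falls short. It is also known there for roles in stress responses. LaeA proteins, known from Aspergillus, are nuclear regulators of secondary metabolism. The sources used here give names to none of these IDs, so no member could be assigned to the proteasome or to any other group, and the genotype labels were not checked on the deleted genes. Members are therefore described by ID, level and pattern.

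Size factors, the median over genes of the ratio to the gene's geometric mean over libraries, ran from 0.683 to 0.696 in Δrpn-4, 1.14 to 1.18 in ΔCclaeA, 0.807 to 1.21 in Δtah-1 and 1.18 to 1.303 in WT on lignosulfonate. Δrpn-4 values therefore rose most on scaling, and all levels below are scaled FPKM unless called deposited. Of the Δtah-1 libraries, replicate 2 stood apart at 1.21, against 0.807 and 0.870. The headers of the WT files name FPKM and those of the mutant files name no unit, so genotype and kind of file cannot be told apart in a contrast with WT. The sequencing depth is unknown, since only FPKM was used. Relative depth, read from the steps of FPKM values between 0.08 and 0.6, ran from 0.705 to 1.16 across the 15 libraries.

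The fall in Δrpn-4 was mostly close to the 2-fold limit. The difference on the log2(mean + 1) scale had a median of -1.11 and ran from -3.02 up to the limit. It lay between -1.5 and -1 in 143 members, between -2 and -1.5 in 10 and below -2 in 3. Across members the mean in Δrpn-4 was at the median 42.3% of the mean in WT on lignosulfonate. The set has no gap at its edge: 74 members lay within 0.1 inside the limit, and 74 IDs that met the other conditions lay within 0.1 outside it. The member nearest to the limit, yc1106_01396, averaged 11.0 ± 0.879 in Δrpn-4 and 23.1 ± 1.93 in WT on lignosulfonate (SD, n = 3 each). The nearest ID outside, yc1106_04247, averaged 48.6 ± 15.2 in Δrpn-4 and 98.1 ± 36.3 in WT on lignosulfonate.

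**Figure D1:**
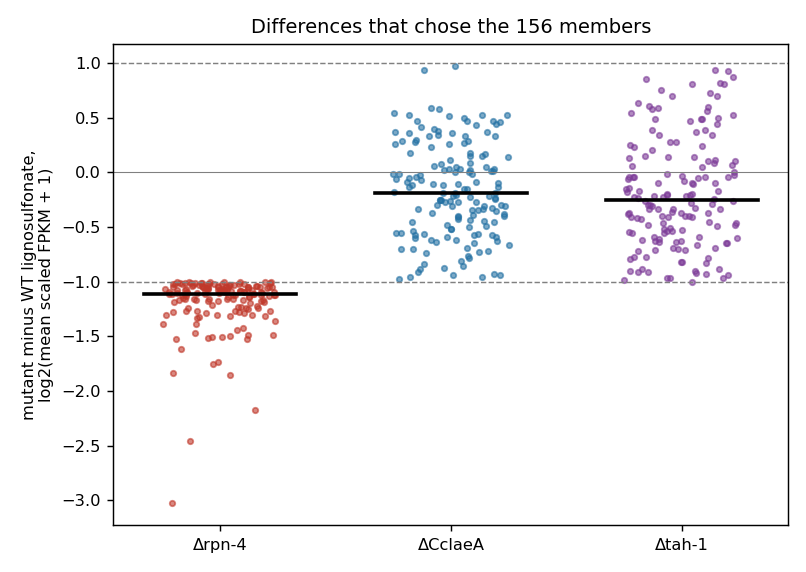
Difference of each mutant from WT on lignosulfonate, log2(mean scaled FPKM + 1), for the 156 members (points) with their medians (black lines). The dashed lines at -1 and 1 are the limits that chose the members, which reach from the limit down to -3.02 in Δrpn-4 with a median of -1.11 and on both sides of 0 in ΔCclaeA and Δtah-1.

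As a description of how the members stood in single libraries, all 3 Δrpn-4 libraries lay below all 3 WT lignosulfonate libraries in 152 members, a pattern found in 30.2% of the 9265 genes tested. The 4 members whose libraries overlapped were yc1106_03262, yc1106_03603, yc1106_05796 and yc1106_09561. In 112 members the Δrpn-4 libraries lay below all 9 other lignosulfonate libraries (10.3% of genes tested), and in 65 below all 12 other libraries of the series (5.33%). In limma's moderated test, 146 members were called lower in Δrpn-4 with at least a 2-fold change and a p under 0.05 after Benjamini-Hochberg adjustment, beside 3.21% of genes tested. With no minimum fold change 150 were called lower, beside 21.8% of genes tested. These counts restate the choice of members and test nothing.

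To read the fall in a library left out of the group means, the conditions were applied again without it. Size factors and the on/off exclusion still used all 15 libraries. Chosen without Δrpn-4 replicate 1, 2 or 3, sets of 161, 176 and 154 IDs had median differences of -1.07, -1.02 and -1.09 in the library left out. That library lay below all 3 WT lignosulfonate libraries in 156 of 161, 160 of 176 and 149 of 154 IDs, against 39.2%, 39.5% and 38.3% of all genes tested. Chosen without WT lignosulfonate replicate 1, 2 or 3, sets of 143, 148 and 164 IDs had medians of -1.11, -1.08 and -0.96 with the library left out as the WT value. The left-out WT library lay above all 3 Δrpn-4 libraries in 142 of 143, 148 of 148 and 152 of 164 IDs, against 42.2%, 41.6% and 40.9% of genes tested. The fall was thus seen in each left-out library, at a median size near or just under 2-fold. Only 1 side of each comparison was left out, however. The libraries on the other side had chosen the IDs, so part of these counts follows from the choice. Membership itself was less firm, since 68 of the 156 IDs were chosen in all 15 selections that each leave out 1 library.

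**Figure D2:**
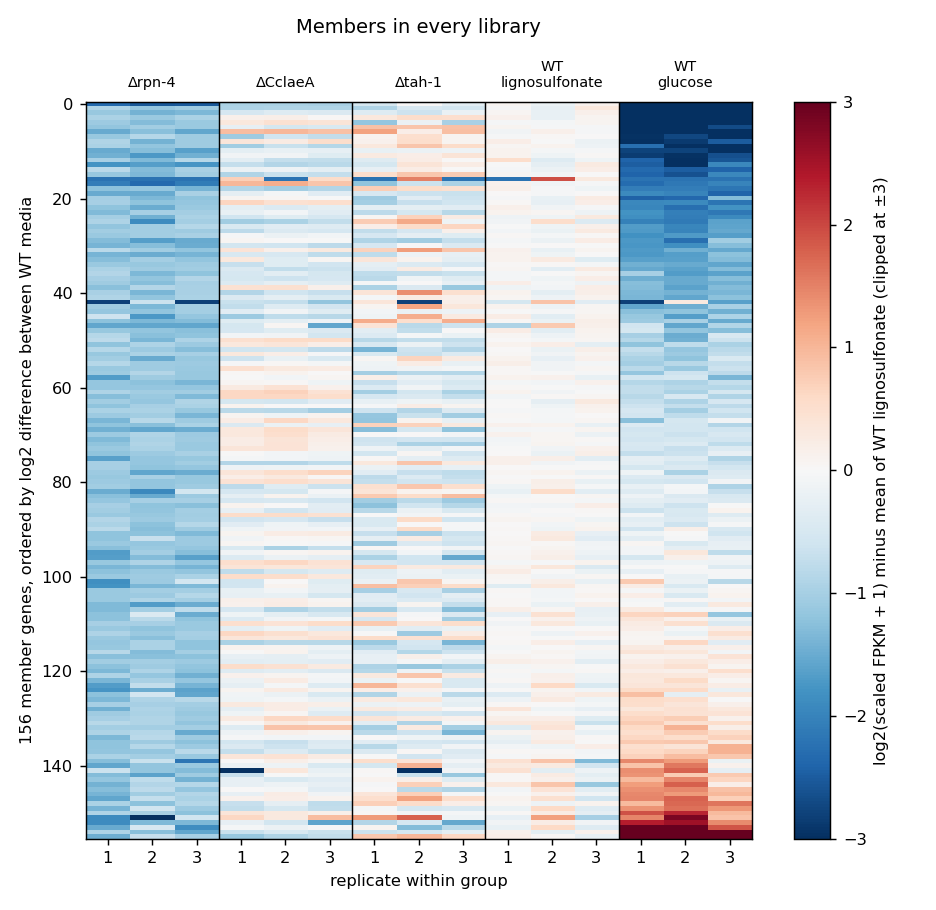
Each of the 156 members (rows, ordered by the log2 difference between the WT media) in each of the 15 libraries (columns), as log2(scaled FPKM + 1) minus the mean of WT on lignosulfonate. The Δrpn-4 columns are blue in nearly all members, while the WT glucose columns run from blue at the top to red at the bottom.

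The 3 lowest IDs carried the differences below -2. yc1106_02960 had 69.6, 60.3 and 61.0 scaled FPKM in Δrpn-4, against 366, 310.0 and 389 in WT on lignosulfonate, a difference of -2.46. Its level in ΔCclaeA was 183, 182 and 181, and in Δtah-1 246, 357 and 284. The Δrpn-4 libraries were thus the lowest on lignosulfonate, with ΔCclaeA also under all WT libraries. yc1106_08719 had 6.44, 5.24 and 6.31 in Δrpn-4, against 33.4, 28.2 and 29.8 in WT on lignosulfonate, a difference of -2.17. It had the highest ΔCclaeA difference of all members, 0.97, with 61.3, 66.0 and 55.2 scaled FPKM in that mutant, and 12.7, 19.2 and 15.3 in Δtah-1. For this gene the 4 groups on lignosulfonate did not overlap.

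yc1106_09561 had the lowest difference on the scale with the pseudocount, -3.02, but rests on few libraries. It was listed at 0 in the 3 Δrpn-4 libraries and at 0, 16.8 and 4.66 in WT on lignosulfonate, so that the groups overlap, and its limma adjusted p was 0.121. It was also listed at 0 in the 3 WT glucose libraries and in 1 ΔCclaeA and 2 Δtah-1 libraries. The members yc1106_04585 and yc1106_05735, chosen after their values were seen, were likewise listed at 0 in all 3 Δrpn-4 libraries. They averaged 2.32 ± 1.77 and 1.07 ± 0.575 scaled FPKM in WT on lignosulfonate (SD, n = 3 each). The last 2 were low in WT too. Among all IDs, 25 were at 0 in all 3 Δrpn-4 libraries and above 0 in all 3 WT lignosulfonate libraries, 2 of them members. A further count, of IDs at 0 in all 3 Δrpn-4 libraries with a WT lignosulfonate mean of at least 5, was 4. Nothing used here says whether any of these IDs is the deleted gene.

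**Figure D3:**
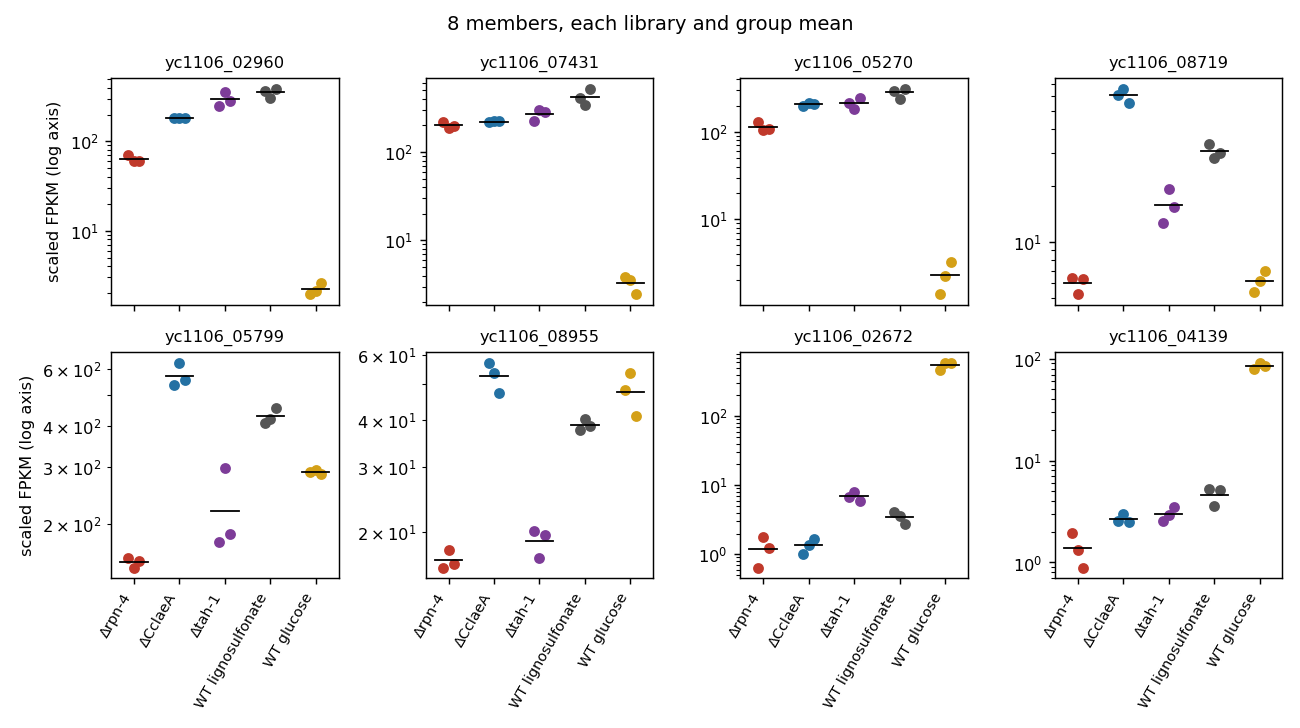
Scaled FPKM (log axis) of 8 members in each library (points) with group means (lines), in Δrpn-4, ΔCclaeA, Δtah-1, WT on lignosulfonate and WT on glucose. Δrpn-4 is the lowest lignosulfonate group in each panel, whereas WT on glucose ranges from below it in yc1106_02960 (2.21 against 63.6) to far above it in yc1106_02672 (553 against 1.21).

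Most members were of moderate abundance. In WT on lignosulfonate 14 members were under 5 scaled FPKM, 65 from 5 to 20, 70 from 20 to 100 and 7 at 100 or more. These were 8.97%, 41.7%, 44.9% and 4.49% of members, beside 12.7%, 24.3%, 47.0% and 16.0% of all genes tested. The median member stood at 8.41 ± 0.435 in Δrpn-4, 17.6 ± 0.458 in ΔCclaeA, 17.6 ± 1.64 in Δtah-1, 20.2 ± 0.783 in WT on lignosulfonate and 14.6 ± 1.18 in WT on glucose (SD of the library medians, n = 3 each). Over all genes tested the same medians lay between 29.9 and 31.0. As deposited, the members' combined share of all FPKM was 0.155% ± 0.00142 in Δrpn-4 and 0.776% ± 0.0332 in WT on lignosulfonate (SD, n = 3 each), a gap that includes the difference in size factors.

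Among abundant members, yc1106_05799 had 157, 146 and 153 scaled FPKM in Δrpn-4, against 409, 421 and 457 in WT on lignosulfonate. It was also low in Δtah-1, at 176, 297 and 185, and high in ΔCclaeA, at 537, 629.7 and 555. The Δrpn-4 libraries lay below those of every other group, the WT glucose libraries at 289, 293 and 285 included. yc1106_07431 had 219, 185 and 197 in Δrpn-4, against 408, 343 and 519 in WT on lignosulfonate. Its ΔCclaeA libraries, at 219.9, 221 and 222, lay just above those of Δrpn-4, with differences from WT of -1.07 in Δrpn-4 and -0.93 in ΔCclaeA. This member is therefore set apart from ΔCclaeA by the position of the limit and not by a clear gap. yc1106_08635, chosen after its values were seen, had 47.8, 53.2 and 49.1 in Δrpn-4, against 168, 141 and 205 in WT on lignosulfonate. Its ΔCclaeA libraries, at 103, 91.8 and 96.1, also lay under all WT libraries, and those of Δtah-1 were at 118, 221 and 198.

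The other deletions left the members near the WT level by choice, and the direction differed from gene to gene. The median difference was -0.19 in ΔCclaeA and -0.25 in Δtah-1, beside -0.01 and 0.01 over all genes tested. Members lay below WT in both mutants in 66 cases and above WT in both in 14. In 34 they were lower in ΔCclaeA and higher in Δtah-1, and in 42 the reverse. Both differences were under 0.5 in size in 65 members. The mutants share the WT lignosulfonate libraries, whose values are also part of the choice, so a common sign is not read further.

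At an adjusted p under 0.05 with no minimum fold change, limma called 39 members lower in ΔCclaeA (21.6% of genes tested) and 16 higher (20.8%). In Δtah-1 it called 51 lower (28.1%) and 20 higher (29%). No call was made in either mutant for 60 members, and 11 were called lower in both. The shares of all genes tested with these joint patterns were not taken, so these counts are not read further. With the 2-fold minimum no member was called in ΔCclaeA, where 7.08% of genes tested were lower and 4.35% higher. In Δtah-1, 3 were called lower, yc1106_00292, yc1106_05799 and yc1106_08955, because limma averages log values and the choice of members used the log of the mean. No member was called higher there, and 8.79% of genes tested were lower and 12.5% higher.

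The members at the limits of the other mutants show how far these patterns reach. yc1106_08955 had 16.0, 17.9 and 16.4 scaled FPKM in Δrpn-4 and 20.2, 17.1 and 19.7 in Δtah-1, against 37.6, 40.4 and 38.7 in WT on lignosulfonate, with 57.2, 53.5 and 47.4 in ΔCclaeA. Its difference in Δtah-1 was the lowest of all members, just inside the limit, and the libraries of Δrpn-4 and Δtah-1 overlapped while both lay under WT. yc1106_09377 had the highest Δtah-1 difference, 0.94, at 10.5, 16.0 and 11.7 in Δtah-1, against 6.82, 5.16 and 6.51 in WT on lignosulfonate. In Δrpn-4 it had 3.04, 2.47 and 2.15, so the mutants lay on opposite sides of WT. yc1106_00429 had the lowest ΔCclaeA difference, -0.97, and scattered widely, from 0 to 3.50 in Δrpn-4 and from 3.88 to 11.8 in WT on lignosulfonate (limma adjusted p = 0.0715 for Δrpn-4).

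How the members behave between the WT media was not a condition of the choice, apart from the exclusion of on/off genes. In WT, 46 members were higher on lignosulfonate than on glucose and 13 were lower (limma, adjusted p under 0.05 and at least 2-fold). These were 29.5% and 8.33% of the 156, beside 22.7% and 18.1% of all 9265 genes tested. After rescaling to equal sums (TPM) the split was 66 higher and 7 lower, and that of all genes tested moved with it, to 30% higher and 11.8% lower. With no minimum fold change 80 were higher (37.1% of genes tested) and 24 lower (36.8%). All 3 lignosulfonate libraries lay above all 3 glucose libraries in 80 members (37.4% of genes tested) and below them in 28 (37%). The median log2 fold change of lignosulfonate over glucose was 0.51 over members and 0.00 over all genes tested. As deposited these medians were 0.69 and 0.17, and with TPM 0.88 and 0.35. Rescaling shifts the log2 values of all genes by nearly the same amount, so the like distance between the medians tests nothing. The media differ in lignosulfonate and in glucose, which cannot be told apart here.

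This comparison shares the 3 WT lignosulfonate libraries with the choice of members, which favours IDs that read high in them. The median was therefore also taken in a WT lignosulfonate library left out of the group means that chose the IDs. It was 0.47 with replicate 1, 0.60 with replicate 2 and 0.16 with replicate 3, where all genes tested had medians from -0.01 to 0.01. With replicate 3 the median was thus below the 0.51 (log2) of all libraries, and the sign was the same in each.

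**Figure D4:**
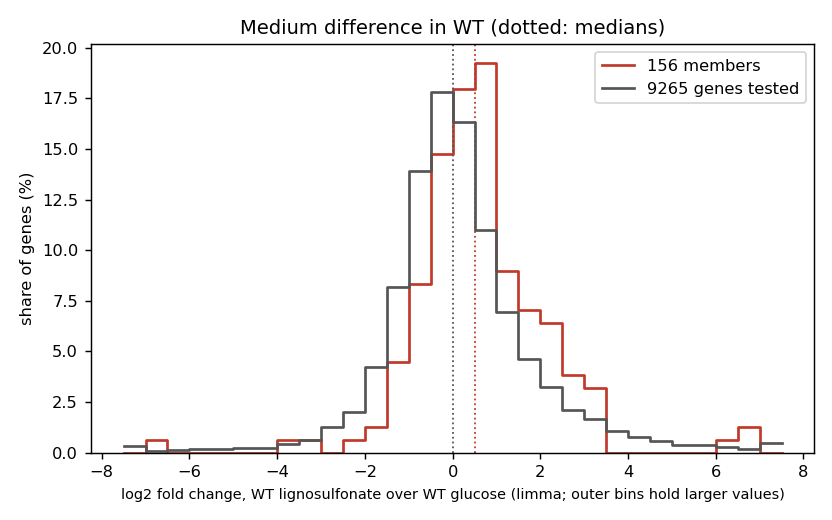
Distribution of the log2 fold change of WT on lignosulfonate over WT on glucose (limma) for the 156 members and for the 9265 genes tested, as the share of genes in each bin, with medians as dotted lines at 0.51 and 0.00. The members reach from -6.94 to 6.79, and their median lies to the right of that of all genes.

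The level left in Δrpn-4 can be set beside WT on glucose for each medium class, as a description. The choice of members holds Δrpn-4 under the WT lignosulfonate level, and the class sets that level against glucose, so together they largely fix where Δrpn-4 stands. In the 46 members higher on lignosulfonate, the median of the group means was 7.12 scaled FPKM in Δrpn-4, 17.6 in WT on lignosulfonate and 3.93 in WT on glucose. The Δrpn-4 libraries lay above all 3 glucose libraries in 34 of the 46. Of all genes tested, whatever their medium response, 41% had this pattern, and the share among genes higher on lignosulfonate was not taken. At the median, 23.0% of the gain of WT on lignosulfonate over glucose was left in Δrpn-4, with a range from -15.0% to 47.0%, where the 2-fold limit itself keeps the value under 50%. The gain was absent in yc1106_03158, yc1106_08719 and yc1106_09461, whose Δrpn-4 means lay below the glucose means.

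The 97 members with no medium call had a median of 9.56 scaled FPKM in Δrpn-4, 22.8 in WT on lignosulfonate and 20.1 in WT on glucose. In 77 of them the Δrpn-4 libraries lay below all glucose libraries as well (38.3% of all genes tested, whatever their medium response). The Δrpn-4 mean was below the glucose mean in 96. The remaining ID, yc1106_09561, was listed at 0 in both groups. In the 13 members lower on lignosulfonate the medians were 3.81 in Δrpn-4, 11.6 in WT on lignosulfonate and 60.8 in WT on glucose. There the order of the groups follows from the choice of members and the class. In the direct contrast of Δrpn-4 on lignosulfonate with WT on glucose, limma called 15 members higher and 56 lower, beside 25.5% and 19.1% of genes tested. This contrast uses the Δrpn-4 libraries that chose the members and is a description.

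The members with the largest rise on lignosulfonate were among the most abundant. yc1106_02960 had 366, 310.0 and 389 scaled FPKM on lignosulfonate, against 1.94, 2.11 and 2.59 on glucose (log2 fold change 6.79 with a standard error of 0.135, adjusted p = 6.71e-15 by limma). yc1106_07431 had 408, 343 and 519 on lignosulfonate, against 3.81, 3.56 and 2.46 on glucose (log2 fold change 6.63 with a standard error of 0.163, adjusted p = 5.72e-14 by limma). yc1106_05270, chosen after its values were seen, averaged 283 ± 37.3 on lignosulfonate and 2.30 ± 0.948 on glucose (SD, n = 3 each). In Δrpn-4 these 3 genes averaged 63.6 ± 5.20, 201 ± 17.2 and 114 ± 12.5, far above the glucose level. They remained strongly expressed on lignosulfonate without rpn-4, at a reduced level. yc1106_08719 differed: its 6.44, 5.24 and 6.31 in Δrpn-4 stood beside 5.37, 6.14 and 6.95 in WT on glucose (log2 fold change -0.03, limma adjusted p = 0.86).

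Falls on lignosulfonate were led by yc1106_02672, which was the member with the highest level on glucose. It had 4.12, 3.60 and 2.79 scaled FPKM on lignosulfonate, against 469, 598 and 590 on glucose (log2 fold change -6.94 with a standard error of 0.193, adjusted p = 2.04e-13 by limma). In Δrpn-4 it had 0.63, 1.77 and 1.23, and ΔCclaeA was nearly as low at 1.02, 1.38 and 1.67, with overlapping libraries. yc1106_04139 had 5.24, 3.55 and 5.11 on lignosulfonate, against 80.0, 91.8 and 84.9 on glucose (log2 fold change -3.95 with a standard error of 0.173, adjusted p = 3.37e-11 by limma). Its Δrpn-4 libraries, at 1.93, 1.32 and 0.879, were the lowest of the series. Both genes were low on lignosulfonate in every genotype, so their differences in Δrpn-4 are differences between low values.

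Some members were neighbours in the ID numbering, although nothing used here ties the numbering to positions in the genome. Of the 156, 16 stood directly next to another member, as 8 pairs, and no run was longer than 2. Of the 309 IDs directly next to a member 5.18% were members, beside 1.53% of all IDs. The pairs began at yc1106_00320, yc1106_01830, yc1106_03261, yc1106_03665, yc1106_05793, yc1106_05798, yc1106_06771 and yc1106_08946. Paired genes could differ widely in level: yc1106_00320 averaged 2.25 in Δrpn-4 and 5.59 in WT on lignosulfonate, whereas yc1106_00321 averaged 35.0 and 71.9. They also differed in their medium response, as yc1106_06771 was higher on lignosulfonate, by a log2 fold change of 1.72, and yc1106_06772 had a log2 fold change of -0.51. The 293 non-members next to a member had a median difference of -0.16 in Δrpn-4, and 18 of them were at or under -1. Over all genes tested the median was -0.01, and 316 of all 10170 IDs, members included, were at or under -1. Whether neighbours differ from other IDs was not tested.

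Of the 7 IDs from yc1106_05793 to yc1106_05799, 5 were members, and no other 7 consecutive IDs held more. This stretch was chosen after the values were seen. yc1106_05793 averaged 57.9 ± 5.83 in Δrpn-4 and 127 ± 20.1 in WT on lignosulfonate, and yc1106_05794 averaged 2.32 ± 0.755 and 7.27 ± 0.213 in these groups (SD, n = 3 each). yc1106_05793 was nearly as low in the other mutants, with differences of -0.88 in ΔCclaeA and -0.96 in Δtah-1. Its Δtah-1 libraries, at 57.2, 87.8 and 48.1, overlapped those of Δrpn-4, at 55.5, 64.5 and 53.6. Only the position of the limit sets this member apart from the other mutants. yc1106_05798 averaged 3.16 ± 0.673 in Δrpn-4 and 7.94 ± 0.817 in WT on lignosulfonate. Libraries overlapped in yc1106_05796, with 1.74, 0 and 5.79 in Δrpn-4, against 7.68, 23.1 and 4.18 in WT on lignosulfonate. The IDs between them did not follow, as yc1106_05795 and yc1106_05797 had differences of -0.17 and -0.01. Directly before the stretch, yc1106_05792 had a difference of -1.09 in Δrpn-4 and missed the set through its -1.16 in Δtah-1. Just past the stretch, yc1106_05801 averaged 558 in Δrpn-4 and 26.4 in WT on lignosulfonate, in the opposite direction. Near the limit of another condition, yc1106_05197 missed the set through its ΔCclaeA difference of -1.02. It lies between the members yc1106_05196 and yc1106_05199 in the numbering and averaged 8.82 ± 1.05 in Δrpn-4 and 32.0 ± 2.58 in WT on lignosulfonate.

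**Figure D5:**
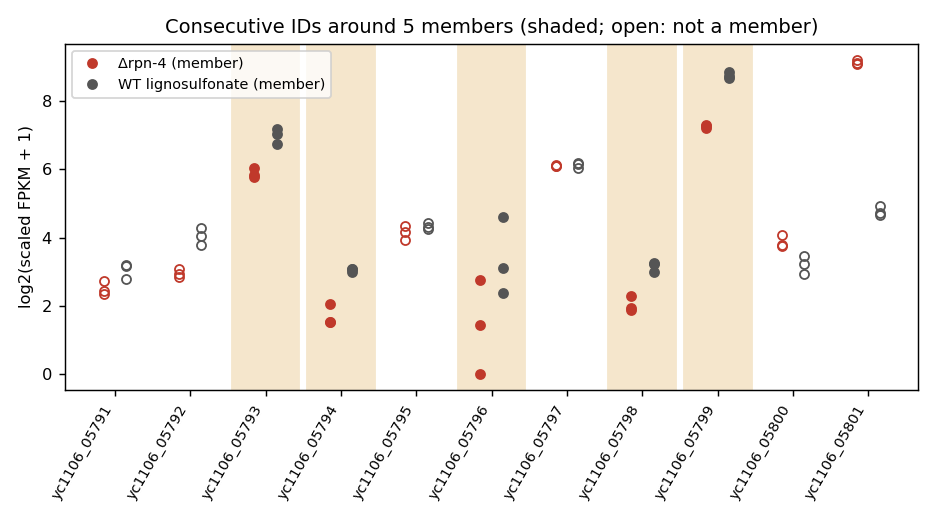
Values of 11 consecutive IDs, from yc1106_05791 to yc1106_05801, as log2(scaled FPKM + 1) in each Δrpn-4 library (red) and each WT lignosulfonate library (grey). The 5 members (shaded, filled points) have lower means in Δrpn-4, with overlapping libraries in yc1106_05796. The non-members yc1106_05791 and yc1106_05792 also lie lower in Δrpn-4. There yc1106_05795 and yc1106_05797 lie at about the WT level, and yc1106_05801 lies far above it.

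The same form of conditions applied to the other mutants gave 232 IDs lowered without CclaeA and 457 lowered without tah-1, each within 2-fold of WT in the remaining mutants. The median log2 fold change of lignosulfonate over glucose in WT was 0.51 in the rpn-4 set, 1.20 in the CclaeA set and -0.51 in the tah-1 set. Of the rpn-4 set 29.5% were higher on lignosulfonate and 8.33% lower, of the CclaeA set 53% and 13.8%, and of the tah-1 set 10.5% and 29.8%. All 3 sets were chosen against the same WT lignosulfonate libraries, and the difference between sets was not tested. Members next to another member of their own set made up 10.3%, 11.2% and 15.5% of these sets, a share that also grows with the size of the set.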

How the data were processed

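Each deposited file held 1 FPKM value per gene ID for 1 library. The authors' unit is FPKM per the file headers of the 6 WT libraries, and the 9 mutant headers name no unit. Tools named in the submitters' processing notes, without roles, are RSEM 1.3.3, HISAT2 2.1.0, fastp 0.19.5 and DESeq2. The genome version was not given in the sources used here. Very abundant transcripts take up part of each library's total and so lower the FPKM of all other genes. Whether this happened in these libraries was not tested. Values were divided by median-of-ratios size factors over the 8858 IDs above 0 in all 15 libraries. That step takes the median gene as unchanged between libraries, so a fall shared by most genes of a mutant would be removed by it. Genes with at least 1 deposited FPKM in at least 3 libraries were tested (9265, all 156 members among them). limma 3.58.1 in R 4.3.3 (trend and robust options) was fitted to log2(scaled FPKM + 1) of all 15 libraries with a mean per group, a scale that understates changes of low values. Adjusted p-values are Benjamini-Hochberg values over all genes tested. The fit was tested on simulated data. No count test was run, since no read counts were used. Within replicate pairs at most 1.50% of values were identical. Relative depth came from the mode of FPKM ratios in 105 pairs of libraries, of which 90.5% fitted within 0.05 (log2).

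The members and lists were chosen with earlier results of these data known. Named IDs are the 2 with the lowest Δrpn-4 difference, the 2 highest in each WT medium, the 2 that rose most and the 2 that fell most between media, those at the limits of each condition, and IDs in the longest runs. Other IDs are marked as chosen after their values were seen or were needed to name a small count. Alternatives were deposited FPKM, TPM, a pseudocount of 0.1, no filter, 6 libraries only, a replicate block, other limits for membership and leaving out each library. Other steps used pandas 2.3.3 and NumPy 2.4.6 under Python 3.11.15, and figures matplotlib 3.10.9.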

Additional observations from a re-analysis of the deposited data

How the results depend on the processing

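Membership depended strongly on the scaling and on the limit. The same conditions gave 2144 IDs with deposited FPKM (120 of the 156 among them), 3056 with TPM (141 shared), 275 with a pseudocount of 0.1 and 13 at a limit of -1.5. Leaving out 1 library gave 141 to 176 IDs, and applying the on/off exclusion to scaled values, an alternative added after seeing the data, gave 158. With the 156 fixed, 121 to 150 were called lower in Δrpn-4 when 1 library was left out, beside 276 to 312 of the 9265 genes tested. Members called higher on lignosulfonate numbered 46 to 48 (2069 to 2148 of genes tested) over the same 15 fits. Those called lower numbered 10 to 16 (1562 to 1786 of genes tested), and the medians over members ran from 0.44 to 0.51. With no minimum fold change 80 were higher and 24 lower, and with TPM 7 were lower, beside 11.8% of all genes tested. The median was 0.69 with deposited FPKM and 0.88 with TPM. The other alternatives kept each count of members within 1.5 times its value, but the background of the Δrpn-4 calls moved with the scaling. With deposited FPKM 154 members were called lower in Δrpn-4, beside 3234 of the 9265 genes tested. With TPM 154 members were called lower, beside 4181 of genes tested, where the main fit had 146 beside 297. Replicate numbers were not used to pair the samples. Of 30 same-numbered pairs, 7 correlated above 0.1 (range -0.31 to 0.51), and a library correlated best with its own number in 19 of 60 cases. The highest were WT on lignosulfonate with WT on glucose, at 0.45 for replicate 2 and 0.51 for replicate 3. Replicate 1 of these groups stood at 0.003, and the labels record no pairing. With the number as a replicate block, 46 members were higher and 12 lower on lignosulfonate and 148 lower in Δrpn-4. Of all 9265 genes tested, 2102, 1672 and 298 were called in these directions. Depth limits low members, since 14 were under 5 scaled FPKM in WT on lignosulfonate.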

Other observations

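A value of 0 stood beside high values of the same group in some members. yc1106_05976 was listed at 0 in ΔCclaeA replicate 1, where the other ΔCclaeA libraries had 46.8 and 31.1 scaled FPKM, and at 0 in Δtah-1 replicate 2, where the others had 37.9 and 33.9. Its Δrpn-4 libraries had 23.3, 15.6 and 14.3, against 50.7, 29.5 and 33.1 in WT on lignosulfonate (log2 fold change -1.04 with a standard error of 1.55, adjusted p = 0.612 by limma). The ID was chosen after its values were seen.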
